A study of Mus musculus with 4 samples.

Results

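Shox2, the teashirt genes Tshz1, Tshz2 and Tshz3, Emx2, Zbtb16 and Scube2 are proximal limb genes outside the Hox and TALE families, and their transcripts were measured in the autopod of Hox13dKO and wild-type mouse embryos. Every probe set that the platform annotation assigns to exactly 1 of these 7 genes was taken, which gave 13 of 45101 probe sets on the array and at least 1 for each gene. The genes were selected on the log2 differences between Hox13dKO and wild type on these same arrays, where Shox2 and Tshz2 were among the highest. Their own differences are therefore given as a description, without a p-value, and how many passed the threshold is printed beside the share for the whole array without anything being read from it. The Hox13dKO samples came from C57BL/6 embryos at about E11.25 with no functional Hoxa13 and with Hoxd11, Hoxd12 and Hoxd13 deleted from both chromosomes (Hoxa13-/- together with HoxDdel/del). The wild-type samples came from C57BL/6 embryos of the same stage. Each group has 2 samples with 1 array each. The labels name no tissue-specific driver for either allele. The tissue was the distal limb bud that corresponds to the Hoxd13 expression domain, taken from fore- and hindlimbs together, and the sources used here do not say how many embryos made up a sample.

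The limb bud is laid out from the shoulder or hip outward as stylopod (upper arm and thigh), zeugopod (forearm and shank) and autopod (hand and foot), and each level uses its own transcription factors. Shox2 is a homeobox gene needed for the stylopod, where the humerus and femur are severely shortened without it. The Tshz genes encode zinc finger repressors named after teashirt of Drosophila, which acts in the trunk and in the proximal leg. Emx2 is a homeobox gene needed for the scapula. Zbtb16 (also called PLZF) encodes a zinc finger repressor that acts with Gli3 in the proximal hindlimb skeleton. Scube2 encodes a secreted protein that helps lipid-bearing hedgehog ligands leave the cells that make them.

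The sequences shown are the 250 bases before the RefSeq start (assembly GRCm38.p6) of the 2 members with the highest differences by brightest probe set. Capitals mark the 5-base cores ATAAA and GTAAA, read on either strand (TTTAT and TTTAC on the other), with which the motifs bound by HOX13 proteins, CAATAAA and TCGTAAA, end.
Shox2, chr3:66981772-66982021, minus strand: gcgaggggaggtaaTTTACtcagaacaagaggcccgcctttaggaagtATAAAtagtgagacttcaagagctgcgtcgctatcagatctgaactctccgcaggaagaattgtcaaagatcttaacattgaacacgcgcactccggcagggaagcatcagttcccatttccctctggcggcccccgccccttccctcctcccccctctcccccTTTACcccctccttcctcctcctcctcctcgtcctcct
Tshz2, chr2:169632259-169632508, plus strand: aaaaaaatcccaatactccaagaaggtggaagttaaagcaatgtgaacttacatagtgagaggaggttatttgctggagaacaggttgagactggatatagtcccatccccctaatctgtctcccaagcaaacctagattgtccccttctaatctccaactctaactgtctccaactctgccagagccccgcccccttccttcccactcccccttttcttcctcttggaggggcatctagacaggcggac
The Shox2 window holds 3 cores, which begin 236, 202 and 38 bases before the start, and the Tshz2 window holds 0. Of 32851 windows of this length in the table, 51.2% hold at least 1 core, so their presence at Shox2 is ordinary. The full 7-base motifs were found in 0 of the 5 member windows in the table (Shox2, Tshz2, Tshz3, Emx2 and Scube2) and in 4.65% of all windows. Among the other members in the table, Emx2 holds 1 core, and Tshz3 and Scube2 hold 0. Zbtb16 and Tshz1 are named only.

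The values are MAS5 signals, an Affymetrix measure of brightness per probe set on a linear scale, which the authors scaled so that each array had the same trimmed mean. Median signals were 66.1 and 81.2 units in Hox13dKO and 65.8 and 85.7 units in wild type. Signals under a floor of 14.1 units were raised to it before log2 was taken, and a probe set was tested if its geometric mean over the 4 arrays reached 39.6 units. Actin signal at the 5' end over the 3' end, a sign of RNA quality, was 0.728 and 0.771 on the Hox13dKO arrays and lowest on wild type replicate 1 (0.473, against 0.764 on wild type replicate 2). Log2 signals without the floor correlated across probe sets at 0.908 between the Hox13dKO arrays, at 0.91 between the wild-type arrays and at 0.901 to 0.915 between groups, so the closest pair of arrays was one from different groups. All 4 targeted genes were lower in Hox13dKO. Hoxd13, which specifies digits, read 5.79 and 9.58 units in Hox13dKO against 14540 and 16117 units in wild type, and Hoxd12 read 5.23 and 33.5 units in Hox13dKO against 1208 and 2171 units in wild type. Hoxa13 kept 52.4 and 58.0 units in Hox13dKO against 842 and 1463 units in wild type. Hoxd11, labelled as deleted, still read 348 and 454 units in Hox13dKO against 1831 and 1745 units in wild type, and where its probes lie relative to the deletion was not analysed here. Apart from the 2 targeted genes in the list, the limb mesenchyme markers Prrx1, Prrx2, Msx1, Msx2, Twist1, Lhx2 and Lhx9 summed to 32194 and 26003 units in Hox13dKO and 29593 and 28575 units in wild type, so the tissue carried its markers in both groups. Prrx1 gave the largest part of each sum and was the only marker with a positive difference (log2 0.48 ± 0.16 SE). In Prrx2, Msx1 and Lhx2 both Hox13dKO arrays lay below both wild-type arrays. The sums therefore do not show that each marker was level. In whole tissue, more cells of a type and more RNA per cell cannot be told apart.

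Shox2 was higher in Hox13dKO by both of its probe sets. Its brightest probe set (1438042_at) read 3835 and 4835 units in the Hox13dKO autopods, against 1658 and 1038 units in the wild-type autopods. Both Hox13dKO arrays lay above both wild-type arrays, and the signal in wild type was well over the floor, so the wild-type autopod was not devoid of Shox2 signal. The means were 4335 ± 707 units in Hox13dKO and 1348 ± 439 units in wild type (SD, n = 2 each), a log2 difference of 1.71 ± 0.23 (SE), or 3.28-fold. Over the 4 pairings of a Hox13dKO with a wild-type array the log2 difference ran from 1.21 to 2.22. The smallest of these exceeded the distance between the 2 wild-type arrays, whose log2 signals stood 0.68 apart, and that between the 2 Hox13dKO arrays, at 0.33.

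The other Shox2 probe set (1420559_a_at) read 444 and 687 units in Hox13dKO, against 82.7 and 10.7 units in wild type. The groups did not overlap here either, but wild type replicate 2 lay below the floor. The fitted log2 difference of 4.01 ± 0.74 (SE) therefore depends on the floor. With wild type replicate 2 left out it was 2.74, and with wild type replicate 1 left out 5.29. The 2 probe sets share the order of the arrays: Hox13dKO replicate 2 was the highest and wild type replicate 2 the lowest in both.

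The teashirt genes differed among themselves. Tshz2 was higher in Hox13dKO by its 2 probe sets bright enough to be tested, while the differences of Tshz1 and Tshz3 were of the order of the spread between arrays. The brightest Tshz2 probe set (1435385_at) read 617 and 711 units in Hox13dKO, against 201 and 194 units in wild type. The arrays of a group lay close together and the groups far apart. The means were 664 ± 66.3 units in Hox13dKO and 198 ± 4.76 units in wild type (SD, n = 2 each), and the log2 difference was 1.74 ± 0.22 (SE), or 3.35-fold. Pairings of single arrays gave log2 differences of 1.62 to 1.87.

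The second Tshz2 probe set (1428026_at) read 159 and 160.2 units in Hox13dKO, against 66.9 and 56.3 units in wild type. Its log2 difference was 1.38 ± 0.42 (SE), in the same direction and with no overlap of the groups. The third (1459250_at) read 19.1 and 2.15 units in Hox13dKO and 1.03 and 0.96 units in wild type. Of these signals 3 lay below the floor, so this probe set was not tested and gives no fold.

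Tshz1, which also acts in the soft palate and middle ear, had small differences. Its brightest probe set (1427233_at) read 2651 and 2726 units in Hox13dKO, against 2893 and 3125 units in wild type. Both Hox13dKO arrays lay below both wild-type arrays, by a log2 difference of -0.16 ± 0.13 (SE). The other probe set (1427232_at) read 1334 and 1501 units in Hox13dKO and 1252 and 1435 units in wild type, where the groups overlapped and the log2 difference was 0.08 ± 0.16. The 2 Tshz1 probe sets thus differed in sign. Tshz3, which is needed for ureter smooth muscle, read 308 and 257 units in Hox13dKO and 221 and 227 units in wild type. Its groups did not overlap, but the log2 difference of 0.33 ± 0.26 (SE) was little more than the 0.26 that separated the 2 Hox13dKO arrays.

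**Figure D1:**
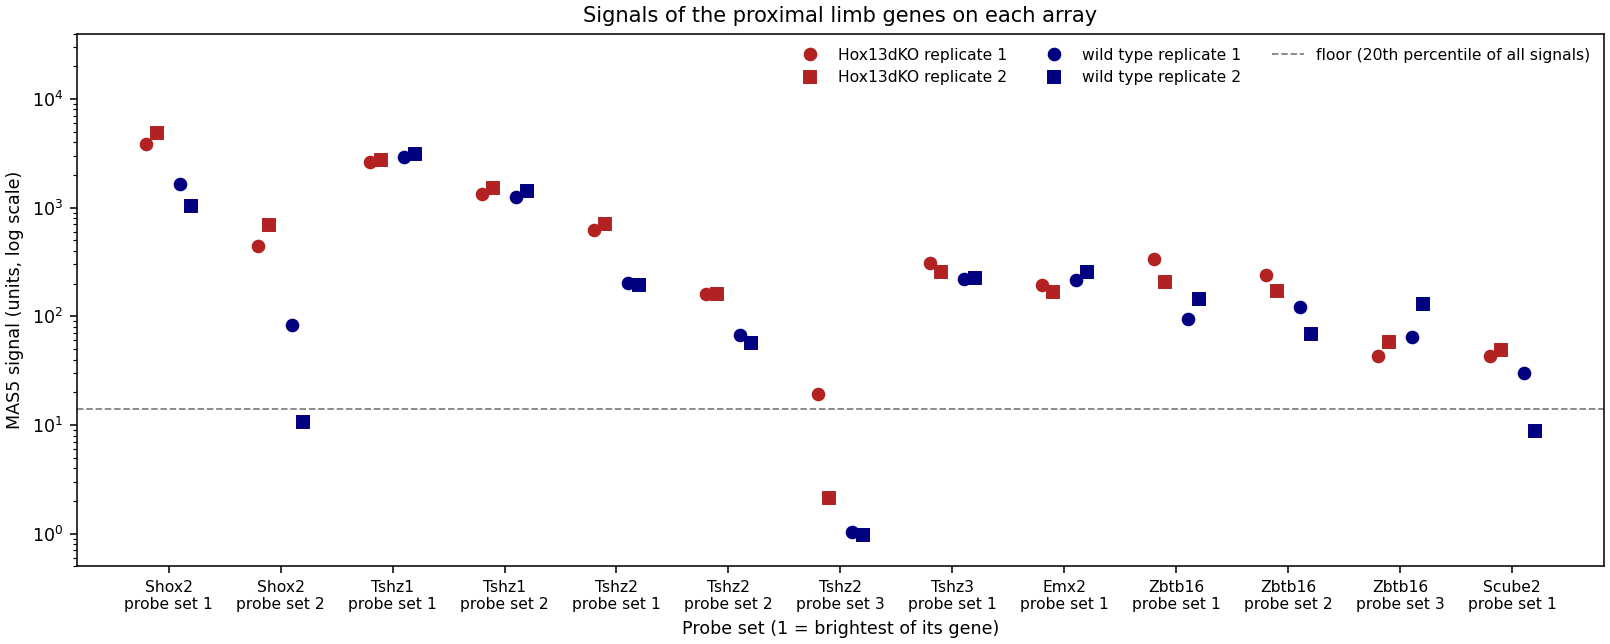
MAS5 signal in units on a log axis for the 13 probe sets of the 7 genes, with probe sets of a gene numbered by brightness. Each point is 1 array (red Hox13dKO, dark blue wild type; circles replicate 1, squares replicate 2), and the dashed line is the floor of 14.1 units. The Hox13dKO points of Shox2 and of the first 2 Tshz2 probe sets stand clear above the wild-type points, and those of Tshz1 lie level with them.

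Zbtb16 was split between its probe sets. The brightest (1439163_at) read 336 and 207 units in Hox13dKO, against 93.6 and 143 units in wild type. The groups did not overlap, and the log2 difference was 1.18 ± 0.38 (SE), or 2.27-fold. The spread within the groups was wide here: the log2 signals of the 2 Hox13dKO arrays stood 0.70 apart, more than the 0.53 between the lowest Hox13dKO and the highest wild-type array. The second probe set (1419874_x_at), whose suffix marks probes that may bind other transcripts, read 238 and 172 units in Hox13dKO and 121 and 68.9 units in wild type, a log2 difference of 1.15 ± 0.42. The third (1427638_at) ran the other way, with 43.2 and 58.3 units in Hox13dKO and 64.9 and 130 units in wild type. Its log2 difference was -0.87 ± 0.58 (SE), again with no overlap, at signals nearer the floor. Which Zbtb16 transcripts each probe set reads was not analysed here.

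Emx2 was a member with lower signal in Hox13dKO, by its 1 probe set (1456258_at). It read 194 and 166 units in Hox13dKO, against 217 and 255 units in wild type. Both Hox13dKO arrays lay below both wild-type arrays, and the log2 difference of -0.39 ± 0.29 (SE) compares with distances of 0.23 and 0.24 between arrays of 1 group. Scube2 (1453486_a_at) read 43.1 and 48.7 units in Hox13dKO and 30.2 and 8.80 units in wild type. The groups did not overlap, but wild type replicate 2 lay below the floor and the probe set was too dim to be tested. The log2 difference was 1.15, and 0.60 without wild type replicate 2.

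**Figure D2:**
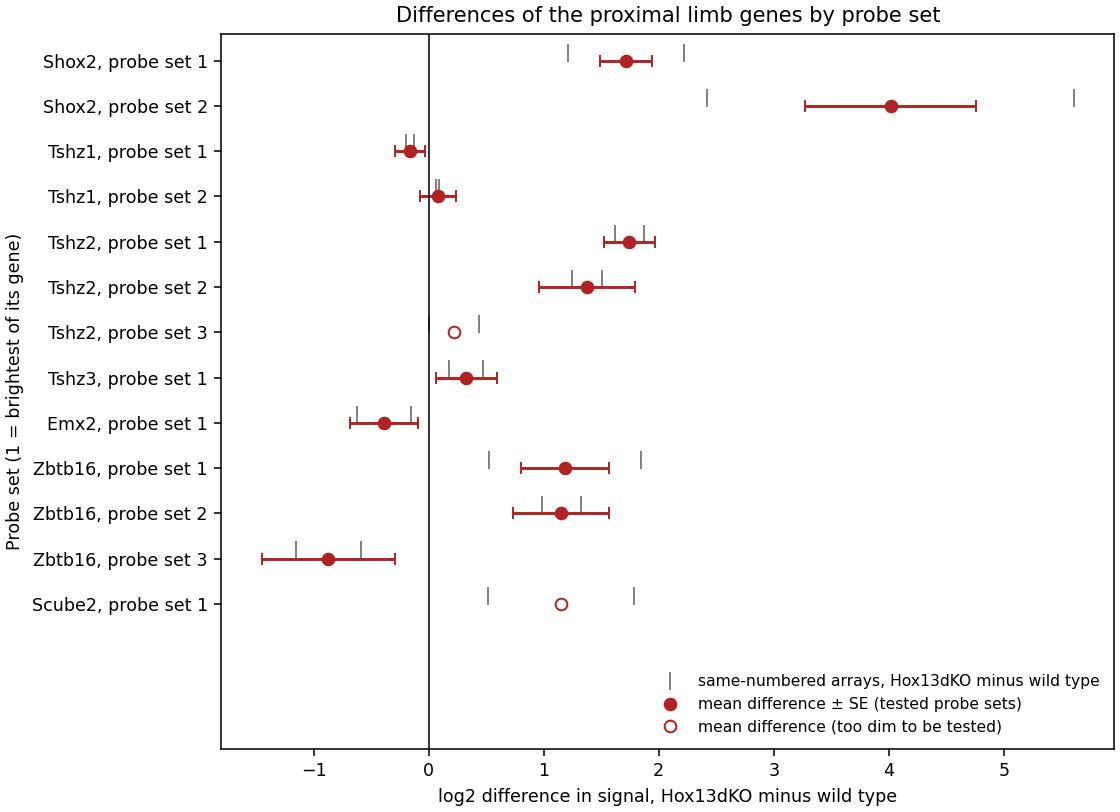
Log2 difference in signal, Hox13dKO minus wild type, for the 13 probe sets. Filled circles are tested probe sets with their SE, open circles those too dim to be tested, and grey ticks the differences between same-numbered arrays. Shox2, Scube2 and the first 2 probe sets of Tshz2 and of Zbtb16 lie to the right of 0, and Tshz1 near it. Tshz3 (0.33 ± 0.26) and the third Tshz2 probe set lie a little to its right. Emx2 (-0.39 ± 0.29) lies about as far to its left, and the third Zbtb16 probe set farther.

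Over all 13 probe sets, Hox13dKO arrays lay above wild-type arrays without overlap in 8, below them in 3 and across them in 2. The 8 include Scube2 and the 2 include the third Tshz2 probe set, both too dim to be tested. Over the 27022 probe sets tested, these shares were 16.3% above and 18.3% below. Of the 13, 11 were bright enough to be tested. In limma, with p-values adjusted by the Benjamini-Hochberg method over the whole table, the first probe sets of Shox2 and Tshz2 passed an adjusted p of 0.05 as higher, and 0 members passed as lower. Of all probe sets tested, 0.115% passed as higher and 0.0925% as lower (31 and 25 probe sets). After median centring of the arrays the split was 146 higher and 68 lower. Nothing is read from these counts, since the same differences were known when the genes were chosen. The median log2 difference over the 7 genes by brightest probe set was 1.15. This is the value of Scube2, which was too dim to be tested and had 1 wild-type array below the floor. The median was 0.76 over the 6 genes tested, beside -0.03 over the 13072 genes tested on the array. Shox2 and Tshz2 no longer passed when either Hox13dKO array was left out, with no filter on dim probe sets, with eBayes without an intensity trend, or with the mean over the probe sets of a gene.

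Among other proximal limb factors, 13 were measured. Of these Hoxa11 and Hoxd9, which pattern the forearm and upper arm, rose, 0 fell and 11 had positive differences. Positive differences were found in 5989 of all 13072 genes tested. Over all genes, 0.161% rose and 0.145% fell. Hoxa11 read 5490 and 5628 units in Hox13dKO against 1568 and 1492 units in wild type, a log2 difference of 1.86 ± 0.13 (SE; limma adjusted p = 0.00423). Hoxd9 read 9282 and 8878 units in Hox13dKO against 2147 and 1516 units in wild type, a log2 difference of 2.33 ± 0.18 (limma adjusted p = 0.00423), and it did not pass without Hox13dKO replicate 2. Both calls were also lost with no filter or with eBayes without a trend. The T-box gene Tbx18, a marker of proximal mesenchyme, had a log2 difference of 0.995 ± 0.20 by its brightest probe set (limma adjusted p = 0.156), and its other probe set passed (1.39 ± 0.19, limma adjusted p = 0.0442). That call was lost when either Hox13dKO array was left out, with no filter, with eBayes without a trend or with the mean over probe sets. The list median was 0.52. In 8 of the 13 both Hox13dKO arrays lay above both wild-type arrays, and in 2 below, where all genes gave 17.1% and 20.1%. At an unadjusted p under 0.05 there were 9 of the 13, beside 7.25% of all genes (948 of 13072). The list holds Hox and TALE genes that were also high in earlier results of these arrays. Hoxd9 belongs to the HoxD cluster, from which Hoxd11, Hoxd12 and Hoxd13 were deleted. Whether the deletion itself changed its signal was not tested.

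Of 17 distal autopod factors measured, 6 fell and 0 rose, where 0.145% of all genes fell and 0.161% rose. In either direction, 10 had an unadjusted p under 0.05 in limma, beside 7.25% of all genes. These 10 include Sall3 and Dlx5, whose differences were positive. The list median was -0.47. The 6 that fell are the targeted Hoxa13, Hoxd11, Hoxd12 and Hoxd13 together with Jag1, a Notch ligand, and Tfap2b, an AP-2 factor gene. The targeted genes count in the 6, in the 10 and in the median, though their fall was set by the genotype. The list was drawn up with earlier results of these arrays known. Jag1 read 1223 and 1453 units in Hox13dKO against 5508 and 4332 units in wild type (log2 difference -1.87 ± 0.17 SE, limma adjusted p = 0.00778). Tfap2b read 808 and 688 units in Hox13dKO against 2463 and 1802 units in wild type (-1.50 ± 0.19 SE, limma adjusted p = 0.0359). The other Jag1 probe sets differed by -2.25 and -1.96 and the other Tfap2b probe set by -0.64. Jag1 did not pass without Hox13dKO replicate 2 and Tfap2b without either Hox13dKO array, and both were lost with no filter or no trend. Among the rest, the zinc finger gene Sall3 read 781 and 608 units in Hox13dKO against 273 and 304 units in wild type and did not pass (1.26 ± 0.22 SE, limma adjusted p = 0.103). Its other probe set differed by -0.39. Bmp2 went the opposite way and did not pass either, with 394 and 385 units in Hox13dKO against 819 and 791 units in wild type (-1.05 ± 0.18 SE, limma adjusted p = 0.102).

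**Figure D3:**
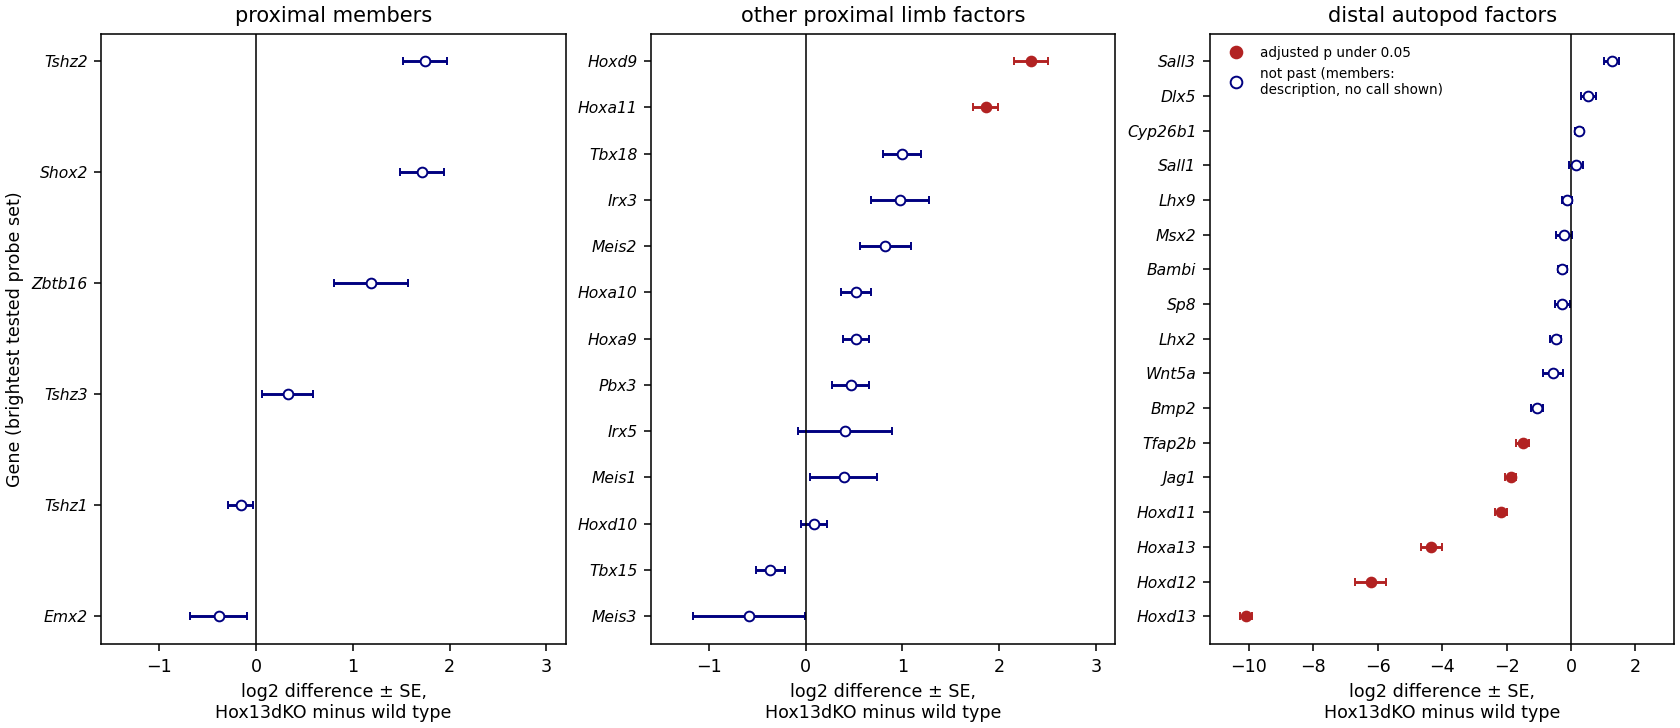
Log2 difference ± SE, Hox13dKO minus wild type, by brightest tested probe set, for the 6 tested members, the 13 other proximal limb factors and the 17 distal autopod factors. Red filled points passed an adjusted p of 0.05 in limma, and open points did not, while members are drawn open as a description. Among the other proximal factors Hoxd9 and Hoxa11 are red on the right, and among the distal factors 6 genes are red on the left, on a wider axis, with Hoxd13 drawn at a bound since both of its Hox13dKO signals lay under the floor.

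In the lists tied to single members no gene passed the test as fitted. Some passed under alternatives: Pax9 after median centring, with 1 probe set per gene, with the replicate block or with either wild-type array left out, and Boc, Prrx1, Bmp4, Gli3, Gas1 and Shh with the replicate block or with a wild-type array left out. Beside the counts at an unadjusted p under 0.05 stands the same 7.25% of all genes. Girdle and shoulder factors, with which Emx2 acts in the scapula, had 0 of 8 past the threshold in limma and 4 at an unadjusted p under 0.05, with a median of 0.16. Pax9, a paired-box gene expressed at the anterior limb margin, read 525 and 391.8 units in Hox13dKO against 105 and 154 units in wild type (log2 difference 1.83 ± 0.31 SE, limma adjusted p = 0.0950). Gli3 differed by 0.52 ± 0.19, Tbx15, needed for scapula shape, by -0.37 ± 0.15 and Tcf15 by 0.87 ± 0.36. Other probe sets ran in the same direction for Pax9 (1.65 and 1.91), Gli3 (0.82 and 0.56) and Tbx15 (-0.07). Genes of chondrocyte maturation, a process that Shox2 promotes in the stylopod, had 0 of 9 past in limma and 1 at an unadjusted p under 0.05, with a median of 0.06. That was Bmp4, with 3317 and 4578 units in Hox13dKO against 2138 and 2587 units in wild type (0.73 ± 0.18 SE, limma adjusted p = 0.317). Runx3 differed by 0.88 ± 0.86, Pth1r by -0.18 ± 0.19 and Runx1 by -0.54 ± 0.80. The other Runx3 probe set had the opposite sign, at -0.40, and those of Runx1 by values on both sides of 0. Ihh and Col10a1, genes of differentiating cartilage, were too dim to be tested.

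Hedgehog release and reception genes, the setting in which Scube2 works, had 0 of 12 past in limma and 6 at an unadjusted p under 0.05, with as many positive as negative differences. Of all genes, 7.25% had an unadjusted p under 0.05 in limma. Shh itself read 381 and 1054 units in Hox13dKO against 1941 and 1289 units in wild type (log2 difference -1.32 ± 0.42 SE). Its target Gli1 differed by -0.90 ± 0.22, and the coreceptor genes Boc and Gas1 by 0.96 ± 0.19 and 0.57 ± 0.14. A dim Gas1 probe set ran the other way, at -0.83. The relatives of the members had 0 of 7 past in limma and 1 at an unadjusted p under 0.05. Of the Scube2 relatives, Scube1 differed by 0.60 ± 0.60 and Scube3 by -0.10 ± 0.21. Prrx1, a paired-related homeobox gene of limb mesenchyme as Shox2 is, read 11938 and 9125 units in Hox13dKO against 7952 and 7008 units in wild type (0.48 ± 0.16 SE). All 5 other Prrx1 probe sets differed in the same direction, by 0.42 to 1.10. Prrx2 differed by -0.21 ± 0.12, Zbtb7a by -0.77 ± 0.53 and Emx1 by 1.17 ± 0.94.

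Markers of other cells in the limb bud were summed on each array. The 10 muscle progenitor markers summed to 1940 and 3916 units in Hox13dKO and 895 and 806 units in wild type. Without Actc1, a muscle actin that was higher in Hox13dKO (limma adjusted p = 0.0182), they summed to 1060 and 1664 units in Hox13dKO and 778 and 713 units in wild type. The myogenic factor gene Myog read 222 and 424 units in Hox13dKO against 49.3 and 10.7 units in wild type, and Myod1 and Myf5 had log2 differences of 1.93 ± 0.59 and 1.25 ± 0.46 (SE), each with both Hox13dKO arrays above both wild-type arrays and none past the threshold in limma. Pax7 read 17.0 and 22.04 units in Hox13dKO, and 12.0 and 9.77 units in wild type, below the floor. None of the 10 was at 0. Of the 9 tested markers 7 had positive differences, beside 5989 of all 13072 genes tested. Pax3 and Met went the other way. Pax3 differed by -1.16 ± 0.88 (SE) with overlapping groups, and its other probe sets by 0.74 and 0.24. Met differed by -0.25 ± 0.26, with both Hox13dKO arrays below both wild-type arrays, and its other probe set by -0.41. The order of the arrays in this sum, Hox13dKO replicate 2 highest, then Hox13dKO replicate 1, wild type replicate 1 and wild type replicate 2, was also that of both Shox2 probe sets, of the 2 brighter Tshz2 probe sets and of Scube2. It was not that of Zbtb16, Tshz1, Tshz3 or Emx2. In the second Tshz2 probe set the 2 Hox13dKO arrays were almost level, at 159 and 160.2 units. Few orders are possible for groups that do not overlap, and the share of all genes with this order was not counted. Nothing is read from the shared order. Endothelial markers summed to 2955 and 3668 units in Hox13dKO and 2527 and 2648 units in wild type, and the nerve and neural crest markers to 483 and 751 units in Hox13dKO and 952 and 960 units in wild type. Macrophage markers summed to 1243 and 1191 units in Hox13dKO and 984 and 1148 units in wild type, and the sums of ectoderm and erythroid markers overlapped between groups. Both Hox13dKO arrays lay above both wild-type arrays in 3 of 7 tested endothelial and 2 of 5 tested macrophage markers. They lay below in 3 of 4 tested nerve and neural crest markers. In the other tested markers of these 3 lists the groups overlapped. All genes gave 17.1% above and 20.1% below. The part of other cell types, and of where the tissue was cut, in the differences of the members was not tested.

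**Figure D4:**
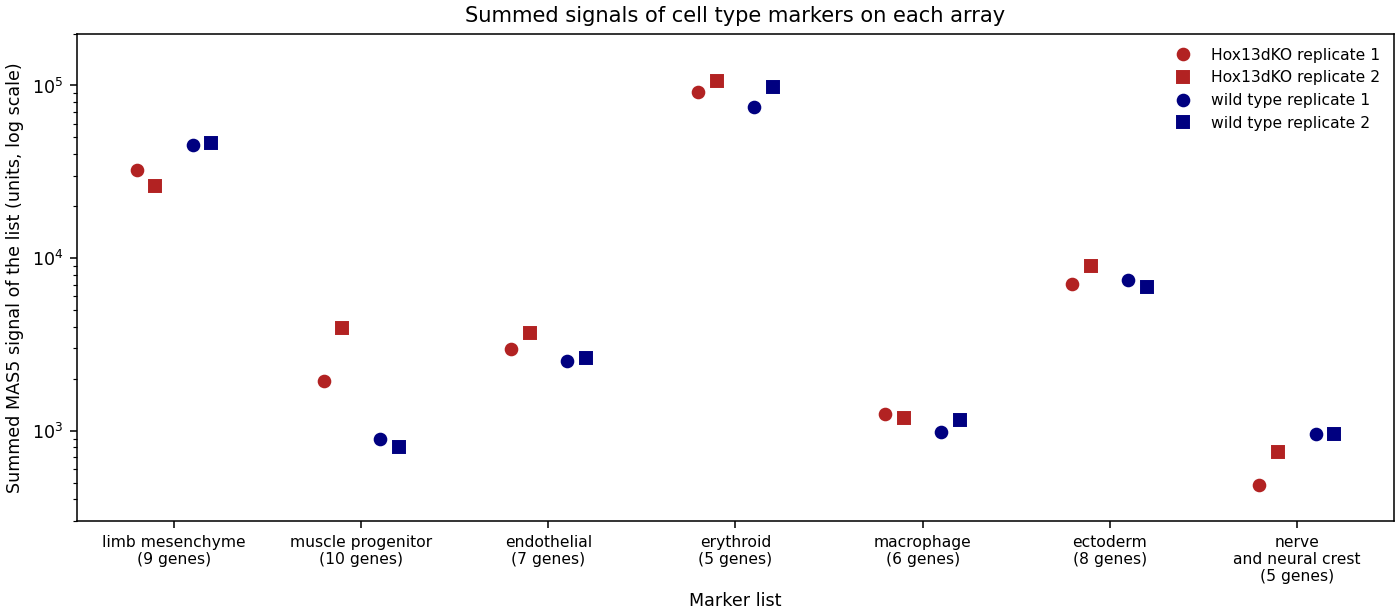
Summed MAS5 signal of each marker list in units on a log axis, 1 point per array (red Hox13dKO, dark blue wild type; circles replicate 1, squares replicate 2). The muscle progenitor sums of 1940 and 3916 units in Hox13dKO stand above the 895 and 806 units in wild type, while the limb mesenchyme sums, which here include Hoxa13 and Hoxd13, are lower in Hox13dKO.

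The genes whose pattern over the 4 arrays lay nearest to Shox2 and to Tshz2 were found by Euclidean distance between log2 signals centred on each gene's mean. Nearest to Shox2 were Sparcl1 (distance 0.26), Sostdc1 (0.29), Ins2 (0.30), Tns2 (0.34) and Nrgn (0.34). Sparcl1, a matrix glycoprotein gene, read 863 and 1143 units in Hox13dKO against 428 and 296 units in wild type. Sostdc1, a secreted BMP and Wnt antagonist gene, read 719 and 1189 units in Hox13dKO against 341 and 235 units in wild type. Nearest to Tshz2 were Dusp5 (0.16), Hoxa11 (0.17), Hoxd8 (0.20), Ror1 (0.21) and Fgf18 (0.31). Hoxd8, of the same HoxD cluster as the deleted genes, read 2936 and 2829 units in Hox13dKO against 939 and 860 units in wild type. Ror1, a Wnt5a receptor gene, read 306 and 349 units in Hox13dKO against 89.8 and 107 units in wild type. With 4 arrays, many genes lie near any pattern that separates the groups.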

How the data were processed

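RNA of 4 samples, 2 Hox13dKO and 2 wild type, was hybridised to 1 array each, and their titles give them as biological replicates. The authors deposited a linear intensity per probe set, made with MAS5 per the submitters' processing notes (version not given in the sources used here), with a trimmed mean of 500.003 on every array. Detection calls and scanner data were not analysed here. The number of arrays limits the precision. From these values, 64 control probe sets were left out, signals were raised to the 20th percentile and log2 was taken. Probe sets at or over the 40th percentile of mean log2 signal (27022) were tested with limma 3.58.1 in R 4.3.3 (lmFit, eBayes with trend, two-sided, Benjamini-Hochberg, threshold 0.05). A gene is given by its brightest probe set with 1 symbol, and the others are stated. Figures used matplotlib 3.10.9. Of 34958 probe sets with 1 symbol, 34754 were found in the RefSeq table by gene ID. Members, gene lists, tests and the rule for named genes (all members, list genes past the threshold or else up to 4 lowest p, and the 5 nearest patterns) were chosen with earlier results of these data known. Hoxd13, Tbx18, Sall3, Bmp2, Dlx5, Scube1, Scube3, Ihh, Col10a1, Actc1, Myog, Myod1, Myf5, Pax7, Pax3 and Met are named after their values were seen. The alternatives were other scalings, floors, filters, variance priors, the replicate number as a block, other choices of probe sets and leaving out each array.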

Additional observations from a re-analysis of the deposited data

How the results depend on the processing

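The count of 56 probe sets past the threshold was 214 after median centring, 418 with the replicate number as a block, 95 with 1 probe set per gene, 1 with eBayes without trend and 0 without the filter on dim probe sets (3159 at an unadjusted p under 0.05 in limma). Leaving out 1 array gave 11 to 525: 20 and 11 when Hox13dKO replicate 1 or 2 was dropped, and 306 and 525 when wild type replicate 1 or 2 was dropped. The cause was not tested. It stayed within 1.5 times of 56 under the other 6 alternatives. Same-numbered arrays share only a number in the labels. Their deviations from the group means correlated at 0.198 over the tested probe sets, with 2 pairs, and under the replicate block the second Shox2 probe set passed too. The median log2 difference of the 7 genes, 1.15, was 1.08 after quantile normalization, 0.87 with a pseudocount of 16 units and 0.49 with the mean over the probe sets of a gene, and ran from 0.60 to 1.06 when 1 array was left out. The median of 1.15 is the value of Scube2, a dim probe set with 1 wild-type array below the floor. The median remained positive throughout, but the genes were chosen on these same differences, so this is a description only. Single member probe sets gave 91 values under alternatives that can move them separately, which the replicate block and median centring cannot. Of these, 86 moved by less than 1 SD between the arrays of a group. The other 5 were values of the 2 dimmer Tshz2 probe sets. Leaving out 1 of the 2 arrays of a group cannot move a value by more than this SD, so those settings do not test stability. The second Shox2 probe set ran from 2.74 to 5.29 under them and still counts among the 86. The second Tshz1 probe set changed sign in 2 of the 91 values (-0.0069 with Hox13dKO replicate 2 dropped, and -0.020 with wild type replicate 1 dropped). Quantile normalization, no floor, a pseudocount, the stricter filter, robust eBayes and leaving out cross-hybridising probe sets kept the calls of Shox2 and Tshz2. Both genes were chosen on the same arrays, so the kept calls add no support. Of the proximal and distal lists, Meis2, Hoxa9, Hoxa10, Bmp2, Sall3, Dlx5 and Wnt5a passed by some probe set in at least 1 of the settings that raised the count. Signals near the floor, as for Scube2, Pax7 and the dimmest Tshz2 probe set, limit what can be said of them.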
